A study of Mus musculus with 10 samples.

Results

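The core and naive pluripotency transcription factors were followed here in mouse embryonic stem (ES) cells that carry 3 copies of 1 autosome. The 10 factors are Pou5f1 (Oct4), Sox2, Klf2, Klf4, Klf5, Esrrb, Zfp42 (Rex1), Tfcp2l1, Tbx3 and Prdm14, out of 28193 genes tested. They were chosen by name on the array: 9 were found that way, and Tfcp2l1, which the array lists under its older name Tcfcp2l1, was found through its RefSeq accession, for 12 noncontrol probes in all. The trisomic lines were Ts6, with 3 copies of chromosome 6 (sampled at passages 9 and 18), Ts8, with 3 of chromosome 8 (passages 10 and 13), Ts11, with 3 of chromosome 11 (passages 8 and 11), and Ts15, with 3 of chromosome 15 (passages 11 and 14). The control, WT, was the diploid male line AB1 (passages 18 and 20). There were 2 arrays per group, 10 together. The labels give the strain of the 4 trisomic lines as 129 S7/SvEvBrd and that of WT as AB1, and give the lines neither a sex nor a parent line. Each trisomic karyotype is represented by 1 line. All groups shared 1 culture regime, serum medium on irradiated SNL76/7 feeder fibroblasts, which were thinned out by letting them settle before the RNA was taken. The 2 replicates of a group are biological replicates of 1 line at different passages, and the 4 comparisons with WT share the WT arrays.

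Pou5f1 and Sox2 bind together at many enhancers of ES cells, and both are needed for the undifferentiated state. The other factors mark the naive state, that of the inner cell mass and early epiblast: Klf4 and Tfcp2l1 are induced by the cytokine LIF through Stat3, Tbx3 is linked to PI3-kinase signalling, Esrrb is repressed by the Wnt-regulated Tcf3 (Tcf7l1), Klf2, Klf4 and Klf5 can partly replace each other, Prdm14 restrains FGF signalling and DNA methylation, and Zfp42 is a widely used marker of naive cells. Their RNA usually falls as ES cells leave the naive state. Klf2 and Zfp42 lie on chromosome 8, so that Ts8 carries an additional copy of both, and none of the other 8 factors lies on chromosome 6, 8, 11 or 15.

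A value below is the log2 of the scanner's processed signal relative to the 75th percentile of its own array, so that 1 unit is a factor of 2 and values can be compared between arrays for 1 probe but not between probes. For a gene with 2 probes the brighter one stood for it. All 12 probes of the factors were well above background on all 10 arrays and no spot was saturated. On single arrays, 71.37% to 80.18% of noncontrol spots exceeded background, and the number of arrays limits the precision. All 28 other pluripotency genes read, among them Nanog and Sall4, were above background on both arrays of every group, and so were all 12 genes of the primed epiblast and all 8 of the neuroectoderm, so that detection alone does not tell these states apart. In RNA of whole cultures, fewer cells that express a factor and less of its RNA per cell cannot be told apart. The Ts15 arrays were alone on slide 2 and every other group filled its own column of slide 1, so that group and position cannot be told apart, and in every group replicate 2 had the higher passage and lay in slide row 2. Both WT arrays had a higher passage than any array of Ts8, Ts11 or Ts15. The differences of these lines from WT therefore cannot be fully told apart from a difference of passage.

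None of the factors passed the test against WT in Ts6, Ts11 or Ts15, and 1, the LIF-responsive factor Tfcp2l1, was lower in Ts8. With limma's moderated test and an adjusted p under 0.05 over all genes as the call, 0 of the 10 factors were called for Ts6 (against 9.04% of all genes), 1 for Ts8 (3.49% of all genes), 0 for Ts11 (8.13%) and 0 for Ts15 (7.43%). The mean of the 4 lines against WT called 0 factors, against 3.85% of all genes. At an unadjusted p under 0.05, 0 factors passed for Ts6 (beside 24.9% of all genes), 3 for Ts8 (Tfcp2l1, Tbx3 and Prdm14, beside 24.7%), 1 for Ts11 (Pou5f1, beside 25.3%), 1 for Ts15 (Sox2, beside 24.4%) and 0 for the mean of the lines (beside 22.6%), so that no count lay far above the share of all genes. The median difference of the 10 factors from WT was 0.08 for Ts6, -0.16 for Ts8, 0.01 for Ts11 and -0.02 for Ts15, beside medians over all genes between -0.01 and 0.04. Pou5f1, Klf2, Klf5, Esrrb and Zfp42 are among the brightest 10% of genes by mean signal. On the 15 autosomes trisomic in no line, that class had medians of -0.04 for Ts6, -0.05 for Ts8, -0.06 for Ts11 and 0.10 for Ts15. The medians and shares of all genes were not matched for brightness. In Ts8, 9 of the 10 factors had a mean below that of WT and Zfp42 one above it; of the 9, Sox2 turned to the other side in 3 of 20 alternatives, the authors' table among them, and Klf2 in 2 of 20, both times with 1 array left out. Both Ts8 arrays lay below both WT arrays for 7 factors and above them for 1, beside 24.4% and 31.1% of all genes. The same counts were 2 below and 4 above for Ts6 (30.4% and 27.1% of all genes), 1 and 4 for Ts11 (26.9% and 26.8%) and 3 and 1 for Ts15 (30.0% and 27.2%).

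**Figure D1:**
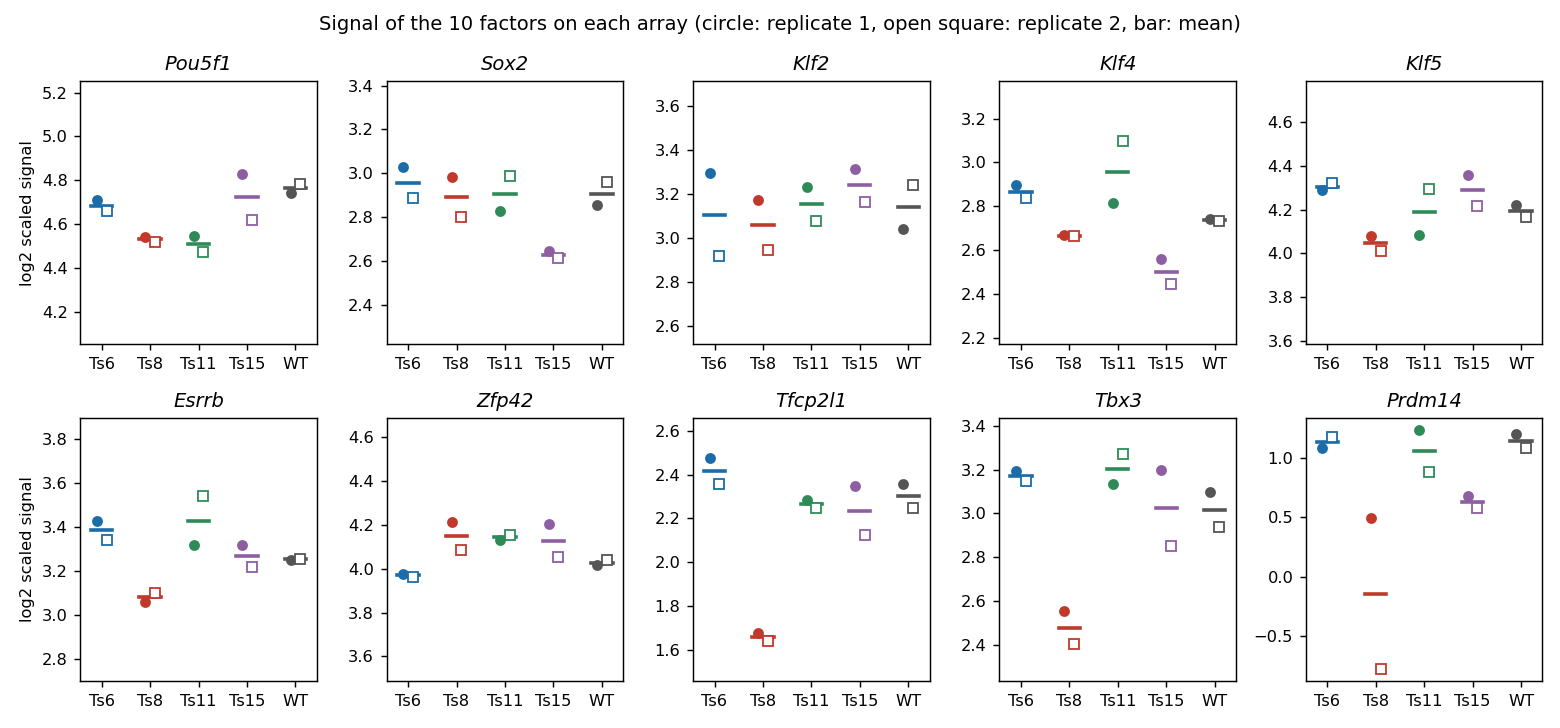
Log2 scaled signal (vertical axis) of the 10 factors on each of the 10 arrays, by group (horizontal axis), with circles for replicate 1, open squares for replicate 2 and bars for group means; each panel has its own range, and levels are not comparable between panels. The Ts8 arrays lie lowest for Tfcp2l1 (1.68 and 1.64), Tbx3 (2.55 and 2.40) and Prdm14 (0.49 and -0.78).

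A test for any difference among the 5 groups called 2 of the 10 factors, Tfcp2l1 (limma adjusted p = 0.014) and Tbx3 (adjusted p = 0.031), against 28.7% of all genes. Prdm14 (adjusted p = 0.077) and Klf4 (adjusted p = 0.091) did not pass. Over the 10 arrays the signal of 6 factors varied by less than 0.5 log2 units, and only Prdm14 had group means that spanned 1 unit or more (1.29). The SD between the 2 arrays of a group had a median of 0.078 and ranged from 0.0029 for Klf4 in Ts8 to 0.90 for Prdm14 in Ts8.

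Neither core factor passed the adjusted test against WT in any line. For Pou5f1, Ts6 was at 4.71 and 4.66, Ts8 at 4.54 and 4.52, Ts11 at 4.55 and 4.48, Ts15 at 4.83 and 4.62, and WT at 4.74 and 4.78 (replicates 1 and 2). Both arrays of Ts6, Ts8 and Ts11 lay below both WT arrays and those of Ts15 lay on either side of them. The widest difference, in Ts11, was -0.25 ± 0.11 (limma estimate ± SE, 2 arrays per group, adjusted p = 0.19), with a 95% interval of -0.50 to -0.005, and that of Ts8 was -0.23 ± 0.11 (adjusted p = 0.22). Ts11 thus had 0.840 of the WT signal, with an interval of 0.707 to 0.997. In order of mean level the groups ran Ts11, Ts8, Ts6, Ts15 and WT, and no neighbours in that order passed the test.

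For Sox2, the partner of Pou5f1, Ts6 was at 3.03 and 2.89, Ts8 at 2.98 and 2.80, Ts11 at 2.83 and 2.99, Ts15 at 2.65 and 2.61, and WT at 2.86 and 2.96. The Ts15 arrays lay below the other 8 arrays, which was also so for 12.4% of all genes, and the other lines overlapped WT. Ts15 had a difference from WT of -0.28 ± 0.12 (adjusted p = 0.20), or 0.825 of the WT signal with a 95% interval of 0.683 to 0.996. In Ts6, Ts8 and Ts11 the differences lay between -0.02 and 0.05. Sox2 also acts in the neural lineage, and the 8 neuroectoderm genes tested had a median difference of -0.17 in Ts15 with 0 called; their part in the Sox2 values was not tested.

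Of Klf2, Klf4 and Klf5, the Krüppel-like factors among the 10, Klf4 had the widest span of group means. For Klf4, one of the reprogramming factors, Ts6 was at 2.90 and 2.84, Ts8 at 2.67 and 2.66, Ts11 at 2.81 and 3.10, Ts15 at 2.56 and 2.45, and WT at 2.74 and 2.73. The Ts15 arrays lay below the other 8, those of Ts6 and Ts11 above WT, and those of Ts8 below it. Klf4 was higher in Ts11 than in Ts15, with means of 2.95 ± 0.20 in Ts11 and 2.50 ± 0.08 in Ts15 (SD, n = 2 each), a difference of 0.45 ± 0.12 (SE) or 1.37-fold (adjusted p = 0.042). This was the 1 factor called between these lines, against 15.0% of all genes, and the call was lost in 14 of 19 alternatives, with adjusted p from 0.021 to 0.18 over them. Against WT, Klf4 differed by 0.22 ± 0.12 in Ts11 (adjusted p = 0.30) and by -0.23 ± 0.12 in Ts15 (adjusted p = 0.27).

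For Klf5, which also acts in the trophectoderm, Ts6 was at 4.29 and 4.32, Ts8 at 4.08 and 4.01, Ts11 at 4.08 and 4.29, Ts15 at 4.36 and 4.22, and WT at 4.22 and 4.17. The higher Ts8 array lay just under the lower Ts11 array, and the Ts8 difference from WT was -0.15 ± 0.11 with a 95% interval of -0.41 to 0.11 (adjusted p = 0.44). For Klf2, Ts6 was at 3.29 and 2.92, Ts8 at 3.17 and 2.94, Ts11 at 3.23 and 3.08, Ts15 at 3.32 and 3.16, and WT at 3.04 and 3.24, and every line overlapped WT. Its replicates differed by up to 0.38, in Ts6. Of 13 other Klf family genes, 1 was called for Ts6 (Klf17, 0.53 higher, adjusted p = 0.033), 0 for Ts8, 0 for Ts11 and 2 for Ts15 (Klf17, 0.74 higher, adjusted p = 0.012, and Klf3, which fell by 0.54, adjusted p = 0.049). With 13 genes, 1 is 7.69% of the list, beside 9.04% of all genes for Ts6, and 2 are 15.4%, beside 7.43% for Ts15.

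Esrrb encodes an orphan nuclear receptor that can stand in for Nanog. On its brighter probe, at chr12:87862509-87862568 of mm9, Ts6 was at 3.43 and 3.34, Ts8 at 3.06 and 3.10, Ts11 at 3.32 and 3.54, Ts15 at 3.32 and 3.22, and WT at 3.25 and 3.26. The Ts8 arrays lay below the other 8 and both Ts6 and Ts11 arrays above WT. The Ts8 difference from WT was -0.17 ± 0.11 (adjusted p = 0.36), and no pair of lines was called, the widest being Ts8 minus Ts11 at -0.35 ± 0.11 (adjusted p = 0.11). A second, much dimmer Esrrb probe, at chr12:87856069-87856128 and designed on a cDNA clone, gave another order. There Ts6 was at -2.66 and -3.01, Ts8 at -3.45 and -3.92, Ts11 at -3.56 and -3.39, Ts15 at -3.89 and -4.26, and WT at -3.35 and -3.39. On this probe Ts6 was highest and Ts15 lowest. Tested on its own in a fit over all probes, it was higher in Ts6 than in Ts15 by 1.24 ± 0.21 (adjusted p = 0.0078) and higher in Ts6 than in Ts8 by 0.86 ± 0.21 (adjusted p = 0.035), while its 4 differences from WT were not called. The 2 probes disagree on Ts15, which lay at 0.01 from WT on the brighter probe and at -0.70 on the dimmer one (adjusted p = 0.086), and which transcript the dimmer probe reads was not tested.

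Tfcp2l1 was the factor that set Ts8 apart from every other group. It encodes a CP2-family factor, related to grainyhead, that carries part of the LIF and Stat3 signal. On its brighter probe, at chr1:120577637-120577696 of mm9, Ts6 was at 2.48 and 2.36, Ts8 at 1.68 and 1.64, Ts11 at 2.29 and 2.25, Ts15 at 2.35 and 2.12, and WT at 2.36 and 2.25. The Ts8 arrays lay below the lowest of the other 8 arrays (1.68 at most, against 2.12 at least), and the other lines overlapped WT. The mean was 1.66 ± 0.03 in Ts8 and 2.30 ± 0.08 in WT (SD, n = 2 each). Tfcp2l1 thus fell by 0.64 in Ts8 relative to WT, a log2 difference of -0.64 ± 0.11 (SE) with a 95% interval of -0.91 to -0.38 and adjusted p = 0.035, or 0.641 of the WT signal (0.534 to 0.770). This call was lost with passage as a covariate. The direction held in all 21 alternatives, with adjusted p from 0.019 to 0.19, and the call was lost in 12 of them, among them those without WT replicate 1, WT replicate 2 or Ts8 replicate 2 (-0.59, -0.70 and -0.62).

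Between lines, Tfcp2l1 was 1.69-fold higher in Ts6 than in Ts8 (0.76 ± 0.11 log2 units, adjusted p = 0.0065), lower in Ts8 than in Ts11 (-0.61 ± 0.11, adjusted p = 0.020) and lower in Ts8 than in Ts15 (-0.58 ± 0.11, adjusted p = 0.016). The call between Ts6 and Ts8 was lost in 2 of 21 alternatives (without Ts6 replicate 1 and on the second probe), that between Ts8 and Ts11 in 5 of 21 (without any 1 of their 4 arrays and with only the arrays compared) and that between Ts8 and Ts15 in 3 of 20 (without Ts8 replicate 2 or Ts15 replicate 1, and with only the arrays compared). On a second Tfcp2l1 probe, at chr1:120581646-120581705, Ts6 was at 1.88 and 1.80, Ts8 at 1.41 and 1.49, Ts11 at 1.90 and 2.02, Ts15 at 1.92 and 1.91, and WT at 1.97 and 1.72. Here too the Ts8 arrays were the lowest of the 10, and the differences were smaller. Tested on its own, it lay at -0.39 ± 0.12 in Ts8 against WT (adjusted p = 0.11) and at 0.39 ± 0.12 in Ts6 against Ts8 (adjusted p = 0.073), neither of them called, and was lower in Ts8 than in Ts11 (-0.51 ± 0.12, adjusted p = 0.048) and in Ts15 (-0.46 ± 0.12, adjusted p = 0.038). The 250 bases before its transcription start (RefSeq, GRCm38.p6, chr1:118627695-118627944, plus strand) are shown because Tfcp2l1 carries the one call against WT.
Tfcp2l1: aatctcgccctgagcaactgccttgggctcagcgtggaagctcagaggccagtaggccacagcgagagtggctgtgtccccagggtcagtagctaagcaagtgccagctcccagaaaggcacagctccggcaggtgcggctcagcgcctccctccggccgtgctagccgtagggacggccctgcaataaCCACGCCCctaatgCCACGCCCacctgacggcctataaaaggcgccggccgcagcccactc
Capitals mark matches on either strand to 4 motifs, the Klf box CCNCNCCC, the octamer ATGCAAAT of Pou5f1, the Esrrb site AAGGTCA and the Stat3 palindrome TTCNNNGAA. The Tfcp2l1 window holds 2 matches to the Klf box, a motif found at least once in 45.9% of 32851 mouse promoter windows of the same length, and none to the octamer (1.60% of promoters), the Esrrb site (4.08%) or the Stat3 palindrome (7.02%). No match says only that these letters are not in this window.

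**Figure D2:**
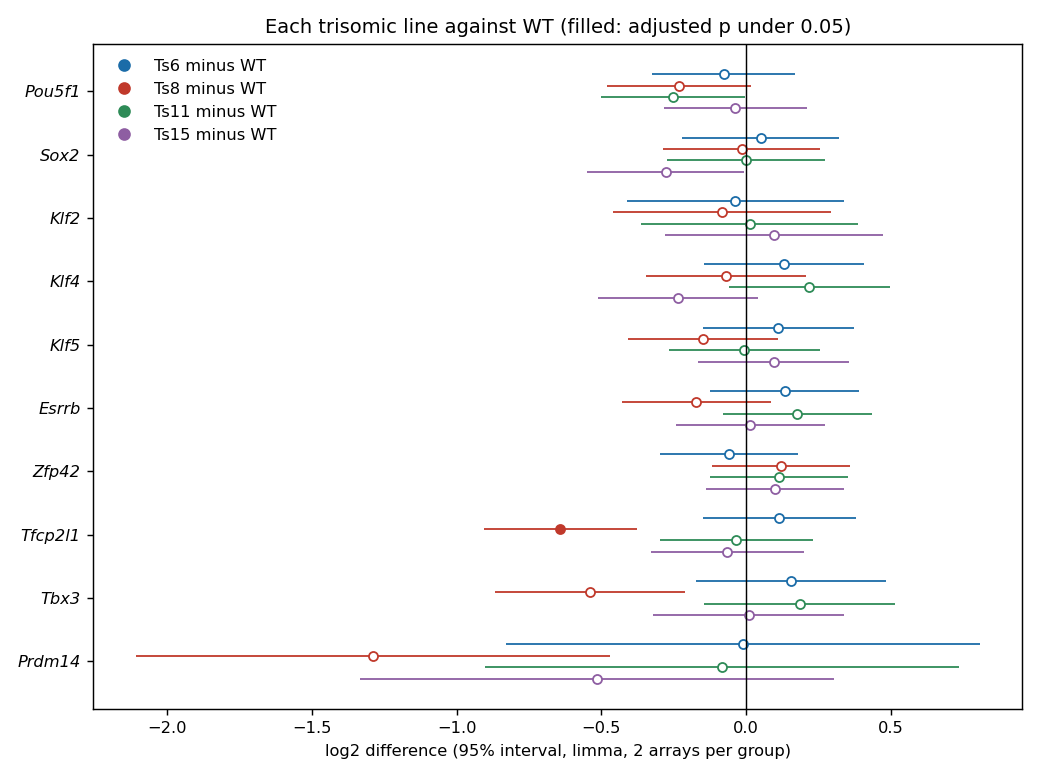
Log2 difference from WT (horizontal axis) of each factor (vertical axis) in Ts6, Ts8, Ts11 and Ts15, with 95% intervals from limma over 2 arrays per group; filled points have an adjusted p under 0.05. The 1 filled point is Tfcp2l1 in Ts8 at -0.64, and the widest interval is that of Prdm14.

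Tbx3 and Prdm14 were also lowest in Ts8. For Tbx3, a T-box factor that helps to keep ES cells undifferentiated, Ts6 was at 3.19 and 3.15, Ts8 at 2.55 and 2.40, Ts11 at 3.13 and 3.27, Ts15 at 3.20 and 2.85, and WT at 3.10 and 2.94. Both Ts8 arrays lay below the other 8, whose lowest value was 2.85. Tbx3 was higher in Ts6 than in Ts8 by 0.69 ± 0.14 (1.62-fold, adjusted p = 0.020), lower in Ts8 than in Ts11 by a log2 difference of -0.72 ± 0.14 (adjusted p = 0.023) and lower in Ts8 than in Ts15 by one of -0.55 ± 0.14 (adjusted p = 0.038). The call against Ts15 was lost in 10 of 19 alternatives, among them normexp, quantile normalization and the authors' table (adjusted p up to 0.18), that against Ts6 in 3 of 20 (without either Ts6 array or without Ts8 replicate 2) and that against Ts11 in 4 of 20 (without either Ts11 array or Ts8 replicate 2, and with only the arrays compared). With Tfcp2l1 these were the 2 factors called in each of these pairs, against 13.7%, 7.81% and 17.2% of all genes. Against WT the Ts8 difference was -0.54 ± 0.14, or 0.688 of the WT signal, with adjusted p = 0.075 and a range of 0.052 to 0.31 over 20 alternatives, so that it was not called in any of them. In the other pairs of lines, 0 factors were called between Ts6 and Ts11 (7.27% of all genes) and 0 between Ts6 and Ts15 (18.2%), and at an unadjusted p under 0.05 these were 0 (beside 25.6% of all genes) and 2 (Sox2 and Klf4, beside 34.5%).

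For Prdm14, a PR-domain factor, Ts6 was at 1.09 and 1.18, Ts8 at 0.49 and -0.78, Ts11 at 1.24 and 0.88, Ts15 at 0.68 and 0.58, and WT at 1.20 and 1.09. Both Ts8 arrays lay below the other 8, but the replicates of Ts8 were 1.27 apart, the widest gap of any factor. The difference of Ts8 from WT was -1.29 ± 0.35 (adjusted p = 0.082), or 0.409 of the WT signal with a 95% interval of 0.232 to 0.721. It was -1.93 with Ts8 replicate 2 alone (without replicate 1), where it was called, and -0.65 with Ts8 replicate 1 alone, where it was not, and adjusted p ran from 0.014 to 0.25 over 20 alternatives. Replicate 2 of Ts8 thus decides the size of this difference. Between lines, Prdm14 differed by 1.28 ± 0.35 in Ts6 against Ts8 (adjusted p = 0.051). It differed by -1.21 ± 0.35 in Ts8 against Ts11 (adjusted p = 0.085) and by -0.78 ± 0.35 in Ts8 against Ts15 (adjusted p = 0.16). None of these was called, though they were in 5 of 20, 2 of 20 and 1 of 19 alternatives, in that order. Ts15 lay at -0.51 ± 0.35 from WT (adjusted p = 0.41), with both arrays below both WT arrays, as for 30.0% of all genes. The fit takes 1 spread per gene from all 5 groups. For Prdm14 the SD was 0.90 in Ts8, against 0.07 in Ts15 and 0.08 in WT. The Ts8 arrays thus also widen the SE of the other lines, Ts15 among them.

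The pattern of Prdm14 over the 10 arrays was compared with that of 2174 other genes whose group means spanned at least 1 log2 unit, by the root mean square difference of values centred on each gene's own mean. The nearest were Erbb3, which encodes a receptor of the EGF family, at 0.207, and Ubxn10 at 0.209. For Erbb3, Ts6 was at -4.68 and -4.61, Ts8 at -5.12 and -5.96, Ts11 at -4.28 and -4.91, Ts15 at -4.82 and -4.68, and WT at -4.56 and -4.48. Like Prdm14, it was lowest in Ts8 replicate 2, a likeness that is not independent of its choice over these same arrays. Ubxn10 was at -2.54 and -3.55 in Ts8, against -1.76 and -1.83 in WT. Neither passed the test in Ts8 against WT (adjusted p = 0.087 for Erbb3 and 0.057 for Ubxn10).

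In Ts8, several factors had both Ts8 arrays below all other 8 arrays: Klf5, Esrrb, Tfcp2l1, Tbx3 and Prdm14, which makes 5 of 10, beside 5.32% of all genes. In the other lines this held for 1 factor of Ts6 (Zfp42, beside 8.40% of all genes), 0 of Ts11 (beside 5.01%) and 2 of Ts15 (Sox2 and Klf4, beside 12.4%). Under other scalings of the arrays, chosen after the values were seen, the Ts8 count was 4 with normexp background correction, 4 after quantile normalization, 6 with median scaling and 5 in the authors' table. Esrrb, Tfcp2l1, Tbx3 and Prdm14 were among them in each. The Ts15 count was 1 (Sox2) with median scaling, and that of Ts6 was 0 with normexp, after quantile normalization and in the authors' table. The shares of all genes were not matched for brightness. The factors share the 10 arrays and are not replicates of Ts8.

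Klf2 and Zfp42 are the factors whose own copy number differed, 3 in Ts8 against 2 in the other groups. In equal proportion to copy number the difference from WT would be log2(3/2), or 0.58. Klf2 had values of 3.17 and 2.94 in Ts8, against 3.04 and 3.24 in WT, a difference of -0.08 ± 0.16 with a 95% interval of -0.46 to 0.29. For Zfp42, a zinc-finger factor, Ts6 was at 3.98 and 3.96, Ts8 at 4.21 and 4.08, Ts11 at 4.13 and 4.15, Ts15 at 4.20 and 4.05, and WT at 4.02 and 4.04. The Ts8 arrays of Zfp42 lay above both WT arrays, as did those of Ts11 and Ts15, and those of Klf2 overlapped WT. The Zfp42 difference between Ts8 and WT was 0.12 ± 0.10 with an interval of -0.12 to 0.36, so that both intervals end below 0.58. Set against all other 8 arrays, Ts8 had a mean of 3.06 for Klf2, against 3.16 (exact permutation test, two-sided, p = 0.422), and of 4.15 for Zfp42, against 4.07 (exact permutation p = 0.289), where 45 splits allow no p below 0.022. These splits treat the 10 arrays as exchangeable, although they are 2 arrays of each of 5 groups. Neither p-value therefore measures the spread between lines. The sign of the Zfp42 difference from the other arrays turned under median scaling (-0.0034, against 0.08), and that of Klf2 without Ts8 replicate 2 (0.01, against -0.10).

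Most genes of chromosome 8 did lie higher in Ts8. The 1498 chromosome 8 genes tested had a median difference from WT of 0.26 (1.20-fold) and 77.1% of them lay above 0, while 16.4% of the other chromosome 8 genes had a lower difference than Klf2 and 34.6% a lower one than Zfp42. Both factors are among the brightest 10% of all genes tested. The 152 chromosome 8 genes of that class had a median of 0.08, with 66.4% above 0 and 2 called higher, beside 0.29 for the other 1346 genes of the chromosome. Within that class, 25.3% of the other genes had a lower difference than Klf2 and 57.3% a lower one than Zfp42. On the 15 autosomes trisomic in no line the brightest class had a median of -0.05 in Ts8, beside 0.05 for the remaining genes. The trisomic chromosomes of Ts6 and Ts11 had the same order, with 0.07 for the brightest class and 0.17 for the other genes on chromosome 6 in Ts6, and 0.04 and 0.21 on chromosome 11 in Ts11. On chromosome 15 in Ts15 the order was the other way, at 0.23 and 0.18, and there the brightest class was also the higher on the 15 other autosomes (0.10, against -0.04). Brightness depends on the probe as well as on the RNA, and its part in the values of Klf2 and Zfp42 was not tested.

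**Figure D3:**
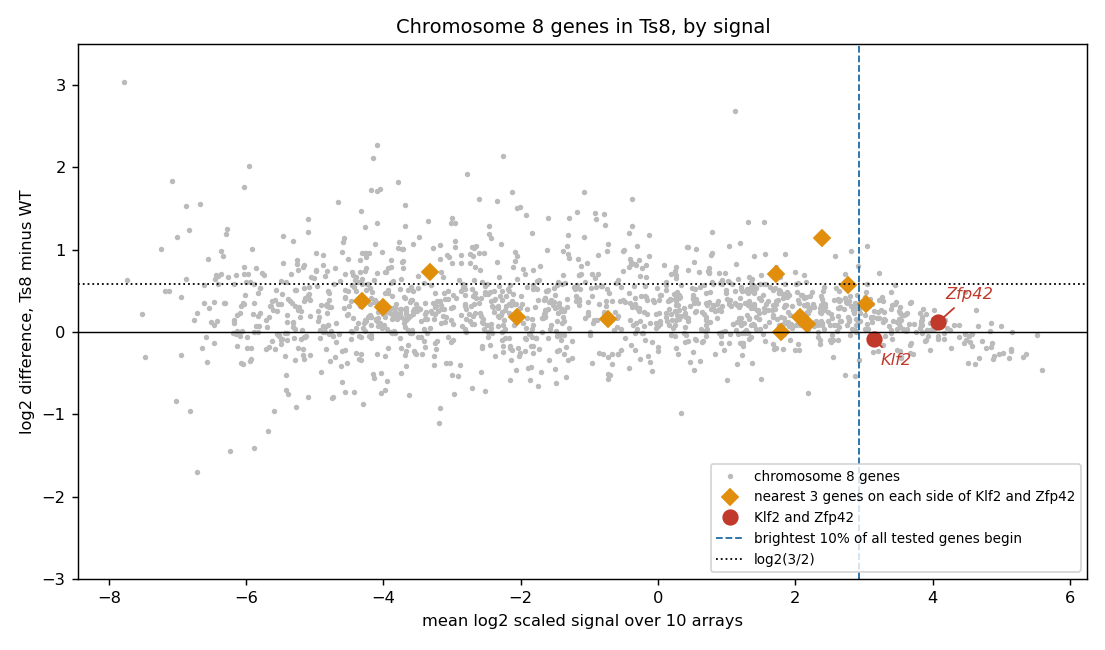
Log2 difference between Ts8 and WT (vertical axis) against the mean log2 scaled signal over 10 arrays (horizontal axis) for the 1498 chromosome 8 genes (grey points), with Klf2 and Zfp42 as circles and their nearest 3 genes on each side as diamonds. Klf2 (-0.08) and Zfp42 (0.12) lie under the dotted line at 0.58, to the right of the dashed line where the brightest 10% of all genes begin.

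The neighbours of both factors were read in the same way. On either side of Klf2, whose probe lies at chr8:74845137-74845196 of mm9, the differences between Ts8 and WT were -0.004 for Ap1m1, 0.18 for Fam32a and 0.73 for Cib3 before it, and 0.71 for Eps15l1, 0.18 for Calr3 and 0.10 for Cherp after it. Eps15l1, which encodes an endocytic adaptor, was 19.8 kb away and was the only one called (1.99 and 2.19 in Ts8, against 1.52 and 1.25 in WT, adjusted p = 0.040). Around Zfp42, at chr8:44380667-44380726, they were 0.58 for Triml2, 1.14 for Triml1 and 0.16 for Zfp353 before it, and 0.31 for Adam26b, 0.38 for Adam26a and 0.34 for Fat1 after it. Triml1, a member of the tripartite motif family, was called, with values of 2.87 and 3.21 in Ts8, against 1.98 and 1.81 in WT (adjusted p = 0.026). Of the 12 neighbours 11 lay above 0, beside 77.1% of the 1498 chromosome 8 genes tested, of which 143 were called higher. Neighbours were taken among tested genes only, with predicted and Riken names left out. Zfp353 and Fat1 are distant neighbours, 1214 and 1757 kb from Zfp42. The promoter windows of Klf2 and Zfp42 (RefSeq, GRCm38.p6) are shown because both genes are carried in 3 copies in Ts8. That of Klf2 is chr8:72318812-72319061 on the plus strand and that of Zfp42 chr8:43307010-43307259 on the minus strand, with capitals as for Tfcp2l1.
Klf2: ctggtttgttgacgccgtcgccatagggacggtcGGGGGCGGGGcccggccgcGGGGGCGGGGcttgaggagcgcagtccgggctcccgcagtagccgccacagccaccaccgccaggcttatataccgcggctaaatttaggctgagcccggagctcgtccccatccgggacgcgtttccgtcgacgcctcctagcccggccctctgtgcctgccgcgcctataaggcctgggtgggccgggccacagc
Zfp42: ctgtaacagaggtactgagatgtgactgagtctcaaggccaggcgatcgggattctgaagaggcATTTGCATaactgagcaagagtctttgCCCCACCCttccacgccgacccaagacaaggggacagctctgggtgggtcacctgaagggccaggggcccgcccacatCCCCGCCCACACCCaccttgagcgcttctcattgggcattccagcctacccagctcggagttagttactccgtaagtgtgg
The Klf2 window holds 4 matches to the Klf box, in overlapping pairs on the opposite strand. The Zfp42 window holds 3 matches to the Klf box and 1 to the octamer, which lies 186 bases before the start on the opposite strand. Windows were at hand for 7 of the 10 factors, and a match is a run of letters, not a bound site.

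The signals upstream of the factors and the rest of the network were read on lists of genes chosen with earlier results of these data known. Of 28 other pluripotency genes, 1 was called for Ts6, 0 for Ts8, 5 for Ts11 and 0 for Ts15, with median differences of 0.01, -0.01, -0.12 and 0.08 in that order. The shares of all genes called are those given above, 9.04% for Ts6, 3.49% for Ts8, 8.13% for Ts11 and 7.43% for Ts15, and of these counts that of Ts11, at 17.9% of the list, lay above its share. Dppa3 (Stella), which protects maternal DNA methylation in the zygote and lies on chromosome 6, was higher in Ts6 (0.58 and 0.07, against -2.68 and -2.76 in WT, a difference of 3.05, adjusted p = 0.0026) and in Ts11 (1.02 and -0.02, a difference of 3.22, adjusted p = 0.0036). In Ts11, Pecam1, an adhesion molecule of ES and endothelial cells, was higher by 1.65 (adjusted p = 0.017) and Tet2 rose too, while Gbx2, a homeobox factor downstream of Stat3, had a difference of -1.27 (adjusted p = 0.038) and Lin28a, which blocks let-7 processing, one of -0.55 (adjusted p = 0.029). These genes moved in lines in which 0 of the 10 factors were called.

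Among 24 genes of the LIF, Wnt, FGF and BMP signals that act on the factors, 1 was called in Ts8, or 4.17% beside 3.49% of all genes. It was Il6st, which encodes the gp130 chain of the LIF receptor. It had values of 0.62 and 0.58 in Ts8, against 1.08 and 1.13 in WT, a difference of -0.50 (adjusted p = 0.038). Both Ts8 arrays lay below both WT arrays. Lifr, Jak1, Stat3 and Socs3, the other genes of the LIF signal on the list, were not called in Ts8, with log2 differences of 0.50, 0.12, 0.06 and -0.03 in that order. In Ts6, 3 of the 24 fell: Axin2, a Wnt target, by 0.93 (adjusted p = 0.0086), Id2, a BMP target, by 0.85 (adjusted p = 0.048) and Etv5, an FGF target, by 0.54 (adjusted p = 0.021). In Ts11 the receptor gene Fgfr2 fell by 0.71 (adjusted p = 0.026), and 0 of 24 were called in Ts15. The counts are 12.5% of the list in Ts6, beside 9.04% of all genes, and 4.17% in Ts11, beside 8.13%. The medians of this list were -0.04 for Ts6, 0.05 for Ts8, 0.01 for Ts11 and 0.07 for Ts15.

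**Figure D4:**
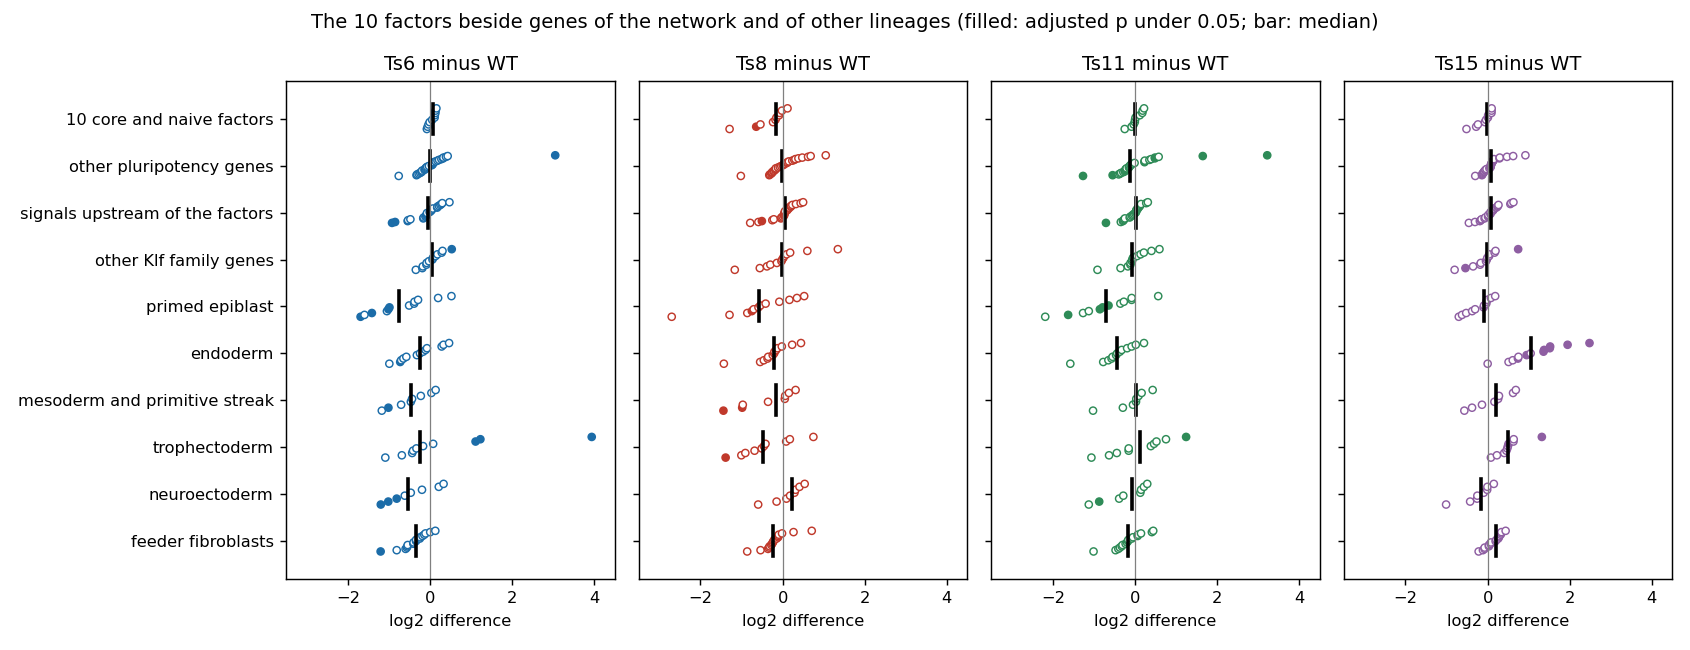
Log2 difference from WT (horizontal axis) of the 10 factors and of the genes of 9 lists (rows), for Ts6, Ts8, Ts11 and Ts15 (panels), with filled points for an adjusted p under 0.05 and bars for list medians; Tpbpa, the rightmost point of Ts6, is not above background in WT and its position is no measured fold. The median of the factors is -0.16 in Ts8 and 0.08 in Ts6, and that of the endoderm genes is 1.05 in Ts15.

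Markers of other states were called in each line, beside 9.04% of all genes for Ts6, 3.49% for Ts8, 8.13% for Ts11 and 7.43% for Ts15. Genes of the primed epiblast, the state that follows the naive one, had median differences of -0.75 for Ts6, -0.56 for Ts8, -0.72 for Ts11 and -0.09 for Ts15. Of the 12 tested, 4 fell in Ts6 (Sall2, Pim2, Sox3 and Cdh2), 1 in Ts8 (Pim2), 4 in Ts11 (Sall2, Pim2, Tcf15 and Dnmt3b) and 0 were called in Ts15. These counts are 33.3% of the list for Ts6 and for Ts11, and 8.33% for Ts8. Of 13 endoderm genes, 8 rose in Ts15 (61.5% of the list), led by Sox17 (2.48), Foxa2 (1.95), Sox7 (1.52) and Gata6 (1.51). The summed level of the 13 was 40.2 and 33.0 in Ts15, against 20.1 and 18.9 in WT in units of the array's 75th percentile. Most of each sum came from Lama1 and Lamb1, of which Lamb1 was not called. In Ts6 the endoderm gene Dab2 fell, which is 7.69% of the list, and in Ts8 and Ts11 none was called. In Ts8 the mesoderm genes T (-1.44, adjusted p = 0.046) and Evx1 (-0.98, adjusted p = 0.038) and the trophectoderm gene Cdx2 (-1.39, adjusted p = 0.044) were lower. T and Evx1 are 25% of the mesoderm genes tested, and Cdx2 is 10% of the trophectoderm genes. Of 10 trophectoderm genes, 3 rose in Ts6 (Tpbpa, at least 3.91-fold, Esx1 and Hand1), 1 in Ts11 (Esx1) and 2 in Ts15 (Hand1 and Tfap2c). These are 30%, 10% and 20% of the list in that order. The median difference over the 10 genes was nonetheless -0.25 for Ts6, so that the 3 rises there were not shared by the list as a whole. That median was above 0 for Ts15 (0.49) and Ts11 (0.11), and below 0 for Ts8 (-0.48). Of 8 mesoderm genes 1 fell in Ts6 (Mesp1, which was not well above background there), and of 8 neuroectoderm genes 3 fell in Ts6 (Nes, Neurod1 and Sox11) and 1 in Ts11 (Sox11). These are 12.5% of the mesoderm list, and 37.5% and 12.5% of the neuroectoderm list. A count of 1 in Ts6 or Ts11 thus lay near the share of all genes.

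Of the 17 feeder fibroblast genes tested, 15 to 17 were above background on both arrays of each group. In their summed level Ts6 was at 31.7 and 40.0, Ts8 at 41.2 and 35.3, Ts11 at 44.8 and 37.7, Ts15 at 47.2 and 54.2, and WT at 42.0 and 44.3. The sums of Ts6 and Ts8 lay below both WT sums and those of Ts15 above both, and of the 17 genes 1 was called for Ts6 (Col5a2, lower) and 0 for each of the other lines. That 1 gene is 5.88% of the list, beside 9.04% of all genes. The part of feeder and lineage genes in the values of the 10 factors was not tested.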

How the data were processed

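RNA of 10 ES cell cultures was labelled with Cy3 and hybridised to 1-colour Agilent arrays. Per the file headers, the authors deposited intensity values from Agilent Feature Extraction 10.7.3.1, with probes placed on mm9. The authors' deposited series table holds log2 values that ran in the direction of the scanner's log2 intensity (correlation across probes 0.99976 to 0.99998), with column medians from -3.4178 to -3.3211. How it was centred is unknown, so it served as an alternative.

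Values were log2 of the processed intensity minus the 75th percentile of the array. A probe was kept where some group had both arrays well above background and no value was flagged (176 had one), so that 43056 of 55681 entered. Gene names were brought up to date through RefSeq accessions (GRCm38.p6; 26672 of 28293 probes with an accession were matched), and the brightest probe stood for its gene. One mean per group was fitted over 10 arrays with limma 3.58.1 in R 4.3.3 (5 residual and 2.67 prior degrees of freedom), with Benjamini-Hochberg adjustment over 28193 genes within each comparison, an adjusted p under 0.05 as a call, and two-sided tests throughout. The scripts were tested on simulated data, in which 100 genes were changed by 0.5 log2 units in Ts8 and 100 by 1 unit. Of these, 2% and 25% were called against WT, with 0 false calls. The simulation changed fewer genes than were called in Ts8 in the real data. A gene above background on no array of a group is given as a bound.

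The members, the lists of genes and the rule of naming were chosen with earlier results of these data known. It named all 10 factors, up to 4 called genes of a list with the largest difference, the 3 nearest genes on each side of Klf2 and Zfp42, and, for factors spanning at least 1 log2 unit, the 2 genes of most alike pattern. Tet2 was named beyond that rule because its list held 5 called genes. The 9 lists hold 137 genes, all on the array, of which 133 were tested. Alternatives were other background corrections and scalings, no filter, the mean of all probes, only the arrays compared, slide 1 only, passage as a covariate, a replicate block, leaving out each array, and the second probes of Esrrb and Tfcp2l1. The limma p-values set a difference against 1 spread per gene, pooled over the replicates of all 5 groups and moderated over genes. They do not cover the spread between independent lines of 1 karyotype. Figures were drawn with Python 3.11.15, numpy 2.4.6, pandas 2.3.3 and matplotlib 3.10.9.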

Additional observations from a re-analysis of the deposited data

Results flagged for a closer look

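Several factors differed between trisomic lines by limma's test of the difference itself (adjusted p under 0.05, 2 arrays per line). Tfcp2l1 was higher in Ts6 than in Ts8 by 0.76 (adjusted p = 0.0065), and it was lower in Ts8 than in Ts11, with a difference of -0.61 (adjusted p = 0.020), and than in Ts15, with one of -0.58 (adjusted p = 0.016). These Tfcp2l1 calls were lost in 2 of 21, 5 of 21 and 3 of 20 alternatives, in that order. On its second probe the difference between Ts6 and Ts8 was 0.39 and was not called (limma adjusted p = 0.073). Tbx3 was higher in Ts6 than in Ts8 by 0.69 (adjusted p = 0.020), and lower in Ts8 than in Ts11 (-0.72, adjusted p = 0.023) and in Ts15 (-0.55, adjusted p = 0.038). These Tbx3 calls were lost in 3 of 20, 4 of 20 and 10 of 19 alternatives, in that order. Klf4 was higher in Ts11 than in Ts15 by 0.45 (adjusted p = 0.042), a call lost in 14 of 19 alternatives. In 6 of these 7 differences Ts8 is one of the lines, and these comparisons share its 2 arrays. The differences from Ts15 cannot be told apart from those between slides.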

How the results depend on the processing

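Of 2162 values of single factors under alternatives, 0 reversed a call and 132 uncalled ones changed sign. The number of factors called in Ts8 against WT was 1, and 0 without the filter on dim probes, with only the arrays compared, on slide 1 only and with passage as a covariate. It ranged from 0 to 2 when single arrays were left out, the 2 (Tfcp2l1 and Prdm14) coming without Ts8 replicate 1. Calls in any difference among the groups numbered 2, with 3 from the mean of all probes, 1 without the filter and a range of 0 to 2 over single arrays, the 0 without Ts8 replicate 2. Calls between pairs of lines numbered 7, with 10 from the mean of all probes, 9 with normexp, 3 from only the arrays compared and a range of 1 to 7 over single arrays, the 1 without Ts8 replicate 2. The mean of the lines called 0 factors, with a range of 0 to 1 over single arrays. In Ts6, Ts11 and Ts15 against WT the count was 0 in every alternative run. Klf2 in Ts8 against the other arrays ranged from -0.22 to 0.01 and Zfp42 from 0.02 to 0.15 over single arrays left out.

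The labels tie the replicate numbers to no shared culture or day, though replicate 2 had the higher passage and slide row 2 in every group. Over 10 pairs of groups the correlation of same-numbered arrays' deviations was -0.1 to 0.392, over 0.1 in 2. With the replicate number as a block the counts were 1 in Ts8 against WT, 0 in Ts6, Ts11, Ts15 and the mean of the lines, 2 for any difference and 7 between pairs, and the Tfcp2l1 difference in Ts8 had adjusted p = 0.038. Another scaling changed the split of all called genes. Of these, 58.9% were higher in Ts8 against WT, and 39.4% under median scaling. In Ts15 the split was 34.6%, and 45% to 51.3% under the other scalings, and in Ts11 it was 49.6%, and 64.9% in the authors' table. With 2 arrays per group small differences were not detectable, and an uncalled factor is not shown to be unchanged. The SE of a line's difference from WT was 0.35 for Prdm14 and between 0.10 (Zfp42) and 0.16 (Klf2) for the other factors. In the simulated data most differences of 1 log2 unit were not called. The genes changed there were drawn from all genes tested and were fewer than those called in Ts8 in the real data. That share is therefore no estimate for these factors.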
